A study of Mus musculus with 6 samples.

Results

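The 10 genes described here are drivers and markers of osteoclast differentiation: Tnfrsf11a, Oscar and Calcr, which encode receptors, Nfatc1, a transcription factor, Dcstamp and Ocstamp, which act in cell fusion, and Acp5, Ctsk, Mmp9 and Atp6v0d2, which act in resorption. They were matched by gene symbol. The set was chosen by the shTrem2 against shNC fold changes of these same libraries, in which Ctsk stood out, and by the ability of RAW264.7 cells to form osteoclasts. They are 10 of the 56092 symbols in the count table, and 8 of them had enough counts to be among the 13528 genes tested.

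The study asked how Trem2, a lipid-sensing receptor of myeloid cells, acts in macrophages that take up debris of kidney tubule cells. RNA-seq was done on RAW264.7, a mouse macrophage-like cell line, made to carry a lentiviral vector with GFP and either a control hairpin (shNC, which the labels call an empty vector) or a hairpin against Trem2 (shTrem2), with puromycin selection. Cells of both groups were first given IL-4 (20 ng/mL, 24 hours) and then fragments of the tubular cell line TCMK-1 (24 hours), and there were 3 libraries per group. Both groups therefore carried a vector and had received IL-4 and debris, and the labels do not say which of the Trem2 hairpins of the study was sequenced. Nothing in the labels says that the 3 libraries of a group came from separate cultures, so the p-values below measure only the spread between these libraries.

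Osteoclasts are giant cells that form when precursors of the macrophage lineage fuse, and they dissolve bone. The cytokine RANKL binds its receptor RANK (the product of Tnfrsf11a), and this signal, together with costimulation through ITAM adaptor proteins and calcium, switches on the transcription factor NFATc1. NFATc1, acting with AP-1, PU.1 and MITF, turns on the genes for fusion, for acid secretion by the vacuolar proton pump and for the enzymes that break down bone matrix.

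The shNC libraries held between 15876061 and 18088372 counts with a gene symbol and the shTrem2 libraries between 19358113 and 19655158. In CPM, which are counts scaled to library size, Trem2 itself averaged 127 ± 15.4 in shNC and 69.4 ± 9.42 in shTrem2 (SD, n = 3 each), with a log2 fold change of -0.87 (SE 0.094) and an FDR of 3.39e-06 by edgeR's quasi-likelihood F test, Benjamini-Hochberg adjusted. By FPKM, the authors' measure per transcript length, the difference in Trem2 was wider, from 178 ± 28.5 to 41.7 ± 4.14, a log2 ratio of -2.09. Of 11 macrophage markers, 4 were higher and 1 was lower in shTrem2 by the criteria given below, and their summed level was between 5430 and 6411 CPM in shNC and between 10482 and 11853 CPM in shTrem2. These sums weigh the markers unevenly, as 1 marker alone reached 153653 counts in a library. The log2 fold changes of the 9 tested markers ran from -0.78 to 2.76, with a median of 0.37. Of 14 tubular epithelial markers, 12 had at most 3 counts in any library and 8 had none, and their summed level was between 0.666 and 1.24 CPM in shNC and between 2.27 and 2.93 CPM in shTrem2, most of it from Aqp1. Of 7 dendritic cell markers, Flt3 and Cd209a were at 0, Itgax was higher and Zbtb46 lower in shTrem2 (log2 fold changes of 2.58 and -0.84), and the summed level was between 12.4 and 14.2 CPM in shNC and between 32.8 and 37.4 CPM in shTrem2. Of 10 osteoblast and stromal markers, 2 were lower in shTrem2 (Sp7 and Alpl), Bglap, Col1a2 and Ibsp were at 0, and the summed level, nearly all of it Spp1, was between 4190 and 4753 CPM in shNC and between 3234 and 5220 CPM in shTrem2. The part of these markers in the results below was not tested. In bulk RNA, a larger share of cells that express a gene and more RNA of that gene per cell cannot be told apart.

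The sequences upstream of Ctsk, the member with the widest difference, and of Acp5, which has several annotated starts, are given here beside that of Tnfrsf11a, whose level was alike in the groups. They were read from RefSeq promoters of the mouse build GRCm38.p6, and each runs 5′ to 3′ on the strand of its gene over the 250 bases before a transcript start. Capitals mark matches to the letters of sites for NFAT (GGAAA), PU.1 (GAGGAA), AP-1 (TGANTCA) and MITF (CACATG or CACGTG), searched on both strands. A GAGGAA followed by A would also hold GGAAA. Promoters of 5 of the 10 genes were matched (Ctsk, Acp5, Calcr, Tnfrsf11a and Oscar).
Ctsk, chr3:95498960-95499209, plus strand: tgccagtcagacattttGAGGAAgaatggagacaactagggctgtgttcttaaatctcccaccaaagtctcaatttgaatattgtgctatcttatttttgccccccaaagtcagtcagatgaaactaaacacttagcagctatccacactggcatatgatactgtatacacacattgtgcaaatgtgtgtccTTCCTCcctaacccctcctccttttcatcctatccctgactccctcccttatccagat
Acp5, start 1, chr9:22135747-22135996, minus strand: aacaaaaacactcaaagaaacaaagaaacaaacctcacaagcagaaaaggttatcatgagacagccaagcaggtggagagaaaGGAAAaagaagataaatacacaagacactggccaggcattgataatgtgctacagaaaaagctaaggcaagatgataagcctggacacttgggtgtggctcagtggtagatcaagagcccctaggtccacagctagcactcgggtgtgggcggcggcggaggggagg
Acp5, start 2, chr9:22131866-22132115, minus strand: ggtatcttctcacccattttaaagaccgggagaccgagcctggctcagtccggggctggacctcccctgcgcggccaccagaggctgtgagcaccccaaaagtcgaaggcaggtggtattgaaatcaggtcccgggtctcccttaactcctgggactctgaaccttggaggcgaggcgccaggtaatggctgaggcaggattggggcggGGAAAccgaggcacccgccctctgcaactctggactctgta
Acp5, start 3, chr9:22130599-22130848, minus strand: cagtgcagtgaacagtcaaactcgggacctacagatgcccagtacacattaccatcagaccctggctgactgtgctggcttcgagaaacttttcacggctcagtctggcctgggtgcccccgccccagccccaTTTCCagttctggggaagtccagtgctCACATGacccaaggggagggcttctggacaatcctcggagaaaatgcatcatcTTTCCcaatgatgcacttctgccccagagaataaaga
Tnfrsf11a, chr1:105780473-105780722, plus strand: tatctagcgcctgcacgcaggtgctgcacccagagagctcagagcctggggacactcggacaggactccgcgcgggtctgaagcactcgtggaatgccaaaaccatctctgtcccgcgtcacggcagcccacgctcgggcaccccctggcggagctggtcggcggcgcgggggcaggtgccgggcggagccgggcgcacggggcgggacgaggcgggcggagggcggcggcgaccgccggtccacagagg

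The Ctsk window held the PU.1 letters in both orientations, at 233 to 228 and at 58 to 53 bases before the start. Each Acp5 window held the NFAT letters, at 1 place before starts 1 and 2 and at 2 places before start 3, where CACATG lay at 90 to 85 bases before it. In the window of start 3, 10 bases lie in an annotated Acp5 exon, and in the Tnfrsf11a window 5 bases lie in an annotated exon of that gene. The Tnfrsf11a window held none of these letters. Windows of the members at or near 0 counts held them too: that of Oscar had 3 matches for NFAT, 1 for PU.1 and 1 for CACATG, and 1 of the 2 Calcr windows had 1 match for NFAT. Among 32851 promoter windows of the same length, 23.3% held GAGGAA, 55.6% held GGAAA, 12.3% held CACATG, 6.02% held CACGTG and 6.75% held TGANTCA. A match is a description of the letters and no evidence of binding.

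Within the comparison of shTrem2 with shNC, 5 of the 10 genes (Ctsk, Ocstamp, Atp6v0d2, Acp5 and Nfatc1) were past both thresholds of the study for differentially expressed genes (DEGs), an FDR under 0.05 and a fold change over 1.5, all of them higher in shTrem2, and 0 were past them in the other direction. Over all genes tested, 9.46% were DEGs higher in shTrem2 and 12.4% were DEGs lower in shTrem2. In 7 of the 8 tested members the lowest shTrem2 library lay above the highest shNC library, and 32.1% of all genes tested did the same. Since the members were chosen with this contrast known, these counts and the values that follow are a description and no test is given for them. Ctsk and Ocstamp passed the filter on low counts through the shTrem2 libraries, with 1 of 3 shNC libraries above the filter's level of 0.534 CPM. Mmp9 also needed the shTrem2 libraries to pass, with 2 of 3 shNC libraries above that level. Its groups were barely apart, the lowest shTrem2 library being 1.06 times the highest shNC library.

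**Figure D1:**
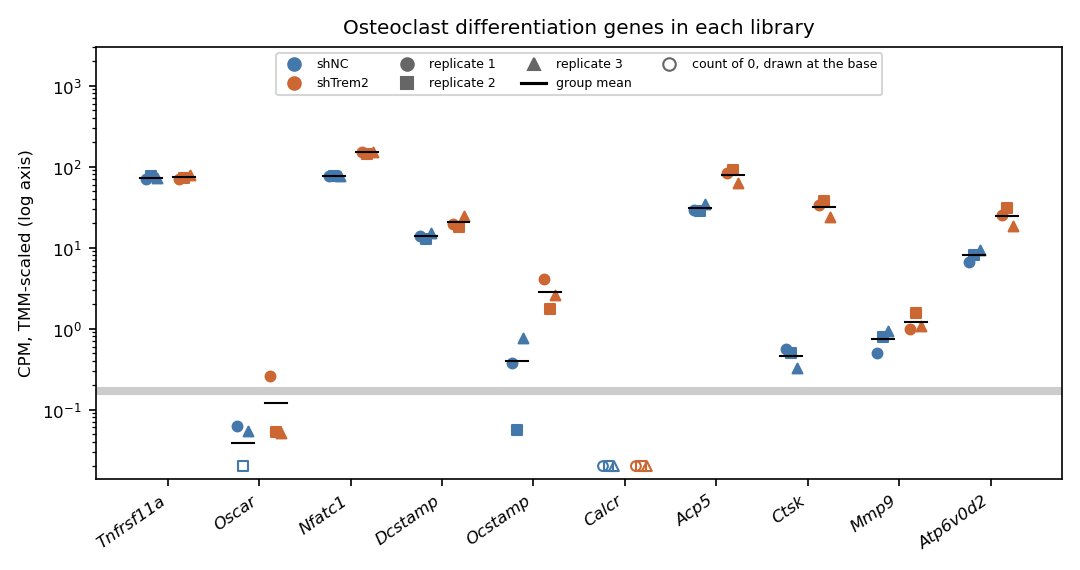
CPM of each of the 10 genes in each library on a log axis, with shNC in blue and shTrem2 in orange, a symbol for each replicate and a black bar for the group mean. The grey band is the level of 3 counts, between 0.155 and 0.186 CPM, and open symbols at the base are counts of 0. Ctsk stands far apart between the groups, Tnfrsf11a does not, and Oscar and Calcr lie at or near the floor.

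Among the receptors, RANK was transcribed at a like level in both groups. Tnfrsf11a (chr1:105780718-105847981 in GRCm38, plus strand) was at 71.1, 75.9 and 71.7 CPM in the shNC libraries and at 70.7, 72.5 and 78.5 CPM in the shTrem2 libraries. The groups overlapped, and their means were 72.9 ± 2.59 and 73.9 ± 4.09 CPM (SD and n = 3 here and below). The log2 fold change was 0.02 (SE 0.058), and its sign depended on the scaling and on single libraries. Oscar (osteoclast-associated receptor, a collagen-binding receptor that signals through the adaptor FcRγ) had counts of 1, 0 and 1 in shNC and of 5, 1 and 1 in shTrem2, at or near the floor of 3 counts, so no fold is given. Calcr, the calcitonin receptor through which calcitonin stops resorption and a marker of mature osteoclasts, had 0 counts in all 6 libraries, a result that 3 counts in a library (0.155 to 0.186 CPM) would still permit by counting error alone. A difference in either of these receptors was not detectable at this depth.

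The master regulator was higher in shTrem2 with little spread between libraries. Nfatc1 was at 75.9, 76.9 and 77.6 CPM in shNC and at 154, 144 and 152 CPM in shTrem2. The groups were far apart relative to their spread, with means of 76.8 ± 0.843 and 150.1 ± 5.06 CPM and a log2 fold change of 0.97 (SE 0.048). Of its 7 transcript rows, 6 had counts. Row 6 went from 12.5 ± 3.65 CPM in shNC to 40.2 ± 5.68 CPM in shTrem2 and row 1 from 18.8 ± 3.47 to 39.9 ± 1.22 CPM. Row 3 was at 19.0, 17.8 and 17.3 CPM in the shNC libraries and at 22.7, 17.7 and 11.2 CPM in the shTrem2 libraries, and row 4 at 2.92, 2.16 and 0 CPM in shNC and between 5.49 (replicate 1) and 16.3 CPM (replicate 3) in shTrem2. Where row 3 was lower row 4 was higher among the shTrem2 libraries, and both rows together, summed after their values were seen, were at 21.9, 20.0 and 17.3 CPM in shNC and at 28.2, 28.8 and 27.4 CPM in shTrem2. How reads were split between these rows is uncertain. In its own family, Nfatc2 (log2 fold change 0.27, SE 0.068) and Nfatc3 (0.24, SE 0.055) passed the FDR threshold but not the fold threshold, and Nfat5, the member that responds to osmotic stress rather than calcium, fell with a log2 fold change of -0.59 (SE 0.045, FDR 1.36e-07, edgeR's quasi-likelihood F test, Benjamini-Hochberg adjusted). Nfat5 missed the fold threshold, at -0.58 each time, without shNC replicate 2, shTrem2 replicate 1 or shTrem2 replicate 3.

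The pair of membrane proteins that precursors need to fuse differed in level and in the size of the difference. Dcstamp was at 13.8, 12.9 and 15.1 CPM in shNC and at 19.6, 18.1 and 24.5 CPM in shTrem2. All 3 shTrem2 libraries were above all 3 shNC libraries, with means of 13.9 ± 1.08 and 20.7 ± 3.36 CPM. Its log2 fold change of 0.57 (SE 0.118), a fold of 1.49, lay just under the fold threshold, and without shNC replicate 3, shTrem2 replicate 1 or shTrem2 replicate 2 it lay just above it, at 0.64, 0.62 and 0.67. Without shTrem2 replicate 3 it was lower, at 0.43. By FPKM the difference in Dcstamp was smaller, with a log2 ratio of means of 0.39. On log2(FPKM + 1) and log2(FPKM + 0.1) its log2 fold change was 0.36 and 0.38. Ocstamp had counts of 6, 1 and 14 in shNC and of 78, 33 and 51 in shTrem2. It was low in both groups, at 0.399 ± 0.358 and 2.81 ± 1.18 CPM, and 1 of the shNC libraries was under the floor. The log2 fold change was 2.79 (SE 0.523), and it was 3.72 without shNC replicate 3, the library with 14 counts, and 2.25 without shNC replicate 2, the library with 1 count. On log2(FPKM + 0.1) and log2(FPKM + 1), scales that understate changes at low levels, it was 2.12 and 0.69. The Dcstamp relative Dcst1 was at 0.848 ± 0.412 and 1.00 ± 0.278 CPM, with a log2 fold change of 0.23 (SE 0.403) that did not pass the test.

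Cathepsin K, the acid cysteine protease that digests collagen in the resorption pit, showed the widest difference of the 10 genes. Ctsk (chr3:95499256-95509362 in GRCm38, plus strand) had counts of 9, 9 and 6 in shNC and of 635, 713 and 457 in shTrem2. In CPM these were 0.559, 0.499 and 0.330 in shNC and 33.1, 37.2 and 23.5 in shTrem2. The gene was thus near its floor in every shNC library and readily counted in every shTrem2 library, and the lowest shTrem2 library was 42.1 times the highest shNC library. The means were 0.463 ± 0.119 and 31.3 ± 7.03 CPM, and the log2 fold change was 6.07 (SE 0.248), a fold of 67.2. The 5 tested genes within 100 kb of Ctsk, looked at after its value was seen, had log2 fold changes between -0.49 and 0.74, with Ctss, the neighbouring cathepsin gene, at 0.33.

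Of the 4 cathepsin genes compared here (Ctsk, Ctss, Ctsb and Ctsl), Ctsk was the least abundant in both groups. On the FPKM scale, which is per transcript length, Ctsk was at 0.390 ± 0.0985 in shNC and 25.8 ± 5.69 in shTrem2, while Ctss was at 449 and 551 and Ctsb at 849 and 775. As a share of Ctsk and Ctss FPKM together, Ctsk was 0.0874% in shNC and 4.44% in shTrem2. Against Ctsl, a broadly expressed cathepsin, the share was 0.101% in shNC and 10.4% in shTrem2, and Ctsl itself fell with a log2 fold change of -0.77 (SE 0.052, FDR 3.92e-08, edgeR's quasi-likelihood F test, Benjamini-Hochberg adjusted).

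Acp5 encodes tartrate-resistant acid phosphatase, the enzyme stained to count osteoclasts. Acp5 (chr9:22126727-22135711 in GRCm38, minus strand) was at 29.4, 27.9 and 34.3 CPM in shNC and at 82.6, 92.1 and 61.9 CPM in shTrem2. It was already well expressed in shNC and did not overlap between the groups, with means of 30.5 ± 3.33 and 78.9 ± 15.4 CPM and a log2 fold change of 1.37 (SE 0.122). The estimated counts differed unevenly over its transcript rows, and as for Nfatc1, how reads were split between the rows is uncertain. Row 2 held 27.3% of the counts of the gene in shNC and 43.6% in shTrem2, going from 8.40 ± 2.08 to 34.4 ± 6.14 CPM. Row 6 held 68.1% and 50.3%, with 18.4, 17.7 and 26.0 CPM in the shNC libraries and 40.5, 48.0 and 30.5 CPM in the shTrem2 libraries. The rows carry no transcript name, so they cannot be tied to the starts printed above. A gene on the opposite strand that overlaps Acp5, 6530413G14Rik, had at most 6 counts in any library. The lysosomal acid phosphatase Acp2 had a log2 fold change of 0.32 (SE 0.093) and did not pass the fold threshold.

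**Figure D2:**
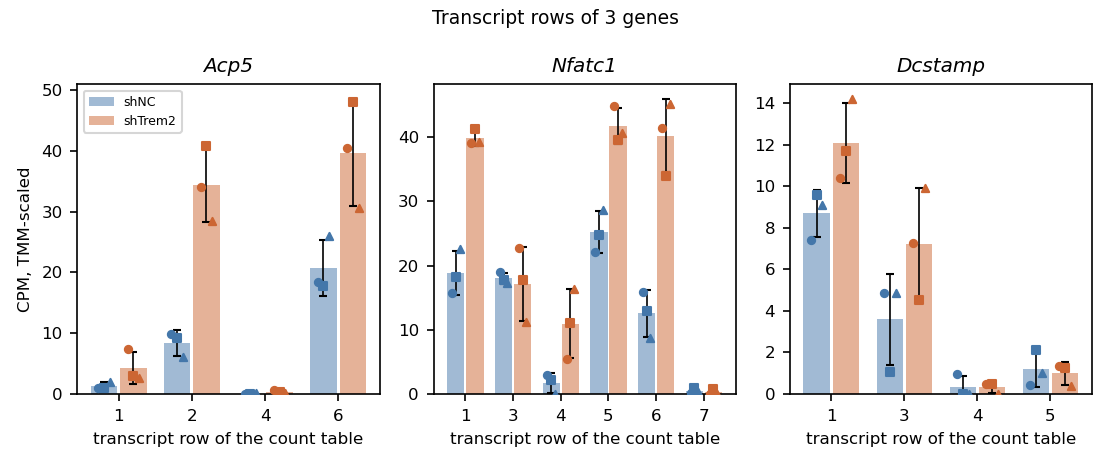
CPM of the transcript rows of Acp5, Nfatc1 and Dcstamp that reached over 10 counts in a library. Bars are group means, error bars are SD (n = 3) and symbols are libraries, with shNC in blue and shTrem2 in orange. Acp5 row 2 and Nfatc1 rows 1, 4 and 6 differ widely between the groups, and Nfatc1 row 3 spreads widely among the shTrem2 libraries.

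Atp6v0d2, a d subunit of the membrane sector of the proton pump that osteoclasts need to fuse, was at 6.71, 8.21 and 9.29 CPM in shNC and at 25.4, 30.4 and 18.5 CPM in shTrem2. The groups did not overlap, with means of 8.07 ± 1.30 and 24.8 ± 5.98 CPM and a log2 fold change of 1.61 (SE 0.168). Its counterpart in most cell types, Atp6v0d1, was the more abundant in both groups, and the share of Atp6v0d2 in the FPKM of both d subunits was 5.23% ± 0.561 in shNC and 11.4% ± 1.87 in shTrem2. Atp6v0d1 had a log2 fold change of 0.39 (SE 0.065).

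Mmp9, a gelatinase that clears matrix, was scarce in both groups, with counts of 8, 14 and 17 in shNC and of 19, 30 and 21 in shTrem2. The means were 0.736 ± 0.222 and 1.21 ± 0.310 CPM. The groups did not overlap, but the log2 fold change of 0.70 had an SE of 0.364, a wide error at this depth. Its inhibitor Timp1 was as scarce, at 0.731 ± 0.202 and 0.850 ± 0.484 CPM, and did not pass the test.

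The shTrem2 libraries did not order the genes alike. Ctsk, Acp5 and Atp6v0d2 were each highest in shTrem2 replicate 2 and lowest in shTrem2 replicate 3, whereas Dcstamp and Tnfrsf11a were highest in shTrem2 replicate 3. Over the 6 libraries and 9602 candidate genes, the pattern of Ctsk around its mean was most like those of Fosb, Prss35 and Ifit1, with root mean square differences of 0.284, 1.25 and 1.36 in log2 CPM and Pearson correlations of 0.997, 0.999 and 0.988. The pattern of Acp5 was most like those of Eef1akmt2, Cd300a and Rcbtb2, with differences of 0.0750, 0.103 and 0.112. These differences follow mostly from how near the fold changes of the genes are, which is what chose Ctsk, and are a description.

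By FPKM, the order of levels in shNC was Acp5 at 28.1, Nfatc1 at 19.7, Tnfrsf11a at 17.1, Dcstamp at 11.7, Atp6v0d2 at 3.65, Ctsk at 0.390, Mmp9 at 0.320, Ocstamp at 0.120 and Oscar at 0.0267, with Calcr at 0. In shTrem2 the order was Acp5 at 71.9, Nfatc1 at 35.5, Ctsk at 25.8, Tnfrsf11a at 18.0, Dcstamp at 15.3, Atp6v0d2 at 10.9, Ocstamp at 0.823, Mmp9 at 0.483 and Oscar at 0.0767. Ctsk was thus below Atp6v0d2 in shNC and above Tnfrsf11a in shTrem2. The libraries of Ctsk and Mmp9 and of Ocstamp and Oscar overlapped in shNC. In shTrem2 those of Tnfrsf11a and Dcstamp and of Ocstamp and Mmp9 overlapped, and the lowest Dcstamp library equalled the highest Atp6v0d2 library, so the order within those pairs is not resolved.

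**Figure D3:**
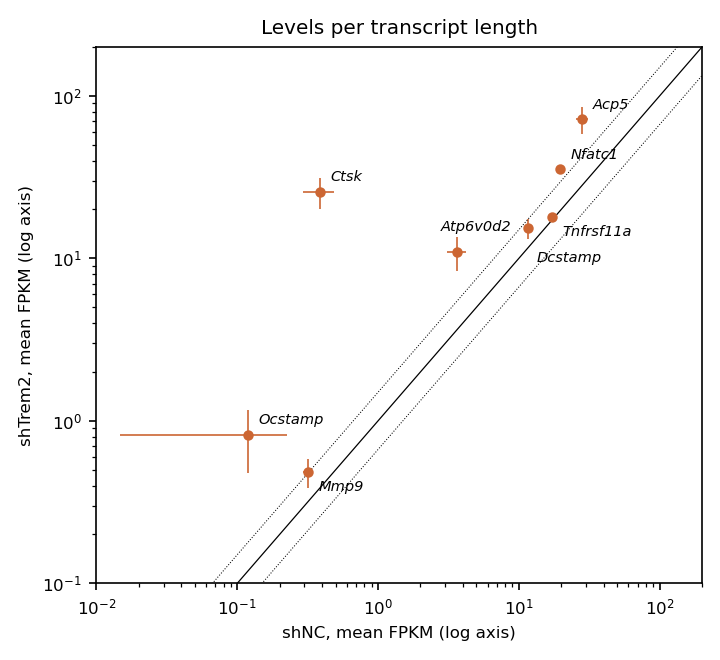
Mean FPKM of 8 genes in shNC (horizontal) and shTrem2 (vertical), both on log axes, with SD bars (n = 3). Oscar and Calcr, at or near 0, are left out. The solid line is equality and the dotted lines are a fold of 1.5. Ctsk lies farthest above the line, and Tnfrsf11a lies beside it.

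Around these 10 genes, 9 lists of pathway genes by role held 156 genes, of which 130 were tested. With the edgeR fit and its FDR over all genes, 18 of them rose and 14 fell past both thresholds, beside 9.46% and 12.4% of all genes tested, and their median log2 fold change was 0.08 beside 0.00 over all genes. The 10 members, which are not in the lists, had 5 higher and 0 lower among 8 tested, for the reason given above a description only. In the KEGG pathway Osteoclast differentiation as the authors annotated it, without the members, 103 of 127 genes were tested, 16 rose and 15 fell (Trem2 itself among them), and the median was 0.00.

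**Figure D4:**
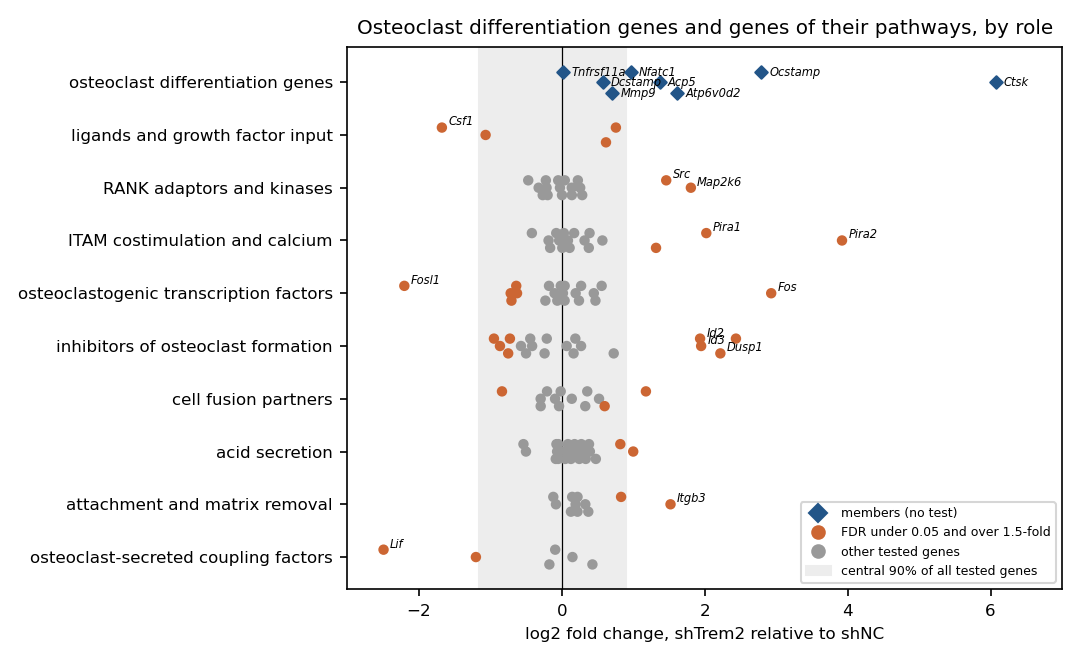
Log2 fold change of shTrem2 relative to shNC for the 8 tested members (diamonds, no test) and for the tested genes of 9 role lists (circles, orange where the FDR was under 0.05 and the fold over 1.5). The grey band holds the central 90% of all genes tested, from -1.16 to 0.90, and names are given for most genes past a log2 fold change of 1.4. Ctsk lies beyond every listed gene, and the lists hold genes on both sides of 0.

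RANKL (Tnfsf11) and its decoy receptor osteoprotegerin (Tnfrsf11b) had 0 counts in every library, so the ligand of RANK was not detectable in these cells. All 4 tested genes of the ligand list changed. Csf1, the growth factor that precursors need, fell from 7.22 ± 1.31 to 2.25 ± 0.346 CPM (log2 fold change -1.68, SE 0.200, FDR 8.36e-06), while its receptor Csf1r rose (0.76, SE 0.052, FDR 5.15e-08). Tnf, an inflammatory cytokine that promotes osteoclast formation, fell (-1.07, SE 0.069, FDR 2.88e-08), and its receptor Tnfrsf1a rose by 0.62 (SE 0.056, FDR 6.12e-07), near the fold threshold (0.58, and no longer past it, with library size as the only scaling). On log2(FPKM + 1) and log2(FPKM + 0.1) Tnfrsf1a was at 0.57 and 0.58, also under that threshold. These FDRs and those that follow come from that edgeR fit, adjusted over all genes tested.

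Downstream of RANK, 2 of 17 adaptors and kinases rose and 0 fell past both thresholds (11.8% and 0%, beside 9.46% and 12.4% of all genes tested). They were Src, a kinase needed for the ruffled border, from 1.39 ± 0.207 to 3.85 ± 0.289 CPM (1.46, SE 0.228, FDR 9.41e-05), and Map2k6, an activator of p38, from 0.422 ± 0.251 to 1.49 ± 0.259 CPM (1.81, SE 0.428, FDR 0.00238). Both were at low levels, and Map2k6 passed the filter through the shTrem2 libraries. On log2(FPKM + 1) both missed the fold threshold, Src at 0.48 and Map2k6 at 0.57, and Map2k6 was not tested when 10 counts were required in every library. Traf6, the main adaptor of RANK, had a log2 fold change of 0.26 (SE 0.057), named here after its value was seen.

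In ITAM costimulation, 3 of 17 tested genes rose and 0 fell (17.6% and 0%). Fcgr3, an activating Fc receptor, rose from 12.8 ± 2.81 to 32.2 ± 6.09 CPM (1.32, SE 0.153, FDR 6.43e-06). The paired immunoglobulin-like receptors Pira2 (3.92, SE 0.577, FDR 4.68e-05) and Pira1 (2.02, SE 0.382, FDR 0.000439) rose from mean levels of 0.092 and 0.395 CPM to 1.54 and 1.65 CPM. Pira12 of the KEGG list also rose (2.99, SE 0.483, FDR 0.00012), but these genes are near copies of each other, so how their reads were shared is uncertain, and 0 or 1 of the shNC libraries passed the filter. Without shNC replicate 3 the values of Pira2 and Pira12 were 4.57 and 3.92. The adaptors themselves moved less: Tyrobp (DAP12, which also carries the signal of Trem2) had a log2 fold change of 0.57 (SE 0.049) and Fcer1g, the FcRγ partner of Oscar, of 0.32 (SE 0.043), both under the fold threshold. Tyrobp was past it, at 0.60, without shTrem2 replicate 2.

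Of the 20 tested transcription factors that act in osteoclast formation, 1 rose and 5 fell (5.0% and 25.0%). Fos, the AP-1 subunit without which precursors do not become osteoclasts, rose from 23.8 ± 0.583 to 181 ± 14.1 CPM (2.93, SE 0.067, FDR 5.03e-12). Its relative Fosb, in the KEGG list only, rose from 1.01 ± 0.343 to 77.0 ± 8.61 CPM (6.24, SE 0.150, FDR 6.13e-12). Fosl1, another Fos family gene, fell from 13.4 ± 2.76 to 2.89 ± 0.351 CPM (-2.20, SE 0.180, FDR 2.42e-07), as did Relb (-0.72, SE 0.087, FDR 1.02e-05) and Nfkb2 (-0.70, SE 0.054, FDR 1.30e-07) of the alternative NF-kB pathway. Jund and Esrra, outside the naming rule, were the other two that fell, at -0.64 and -0.63. Mitf (-0.10, SE 0.052) and Spi1, which encodes PU.1 (0.47, SE 0.056), were named after their values were seen, and neither passed the fold threshold.

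Of 19 tested inhibitors of osteoclast formation, 4 rose and 4 fell (21.1% each). Among those that rose were Id2 (1.94, SE 0.106, FDR 6.11e-09) and Id3 (1.95, SE 0.261, FDR 2.43e-05), which block helix-loop-helix factors such as MITF, and the phosphatase gene Dusp1 (2.22, SE 0.106, FDR 1.66e-09). Irf8, a repressor that is normally lost as osteoclasts form, was among those that fell (-0.95), with Nfkbia at -0.87, Rbpj at -0.75 and Lilrb4a at -0.73, all 4 named after their values were seen.

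Of 13 tested fusion partners of Dcstamp and Ocstamp, 2 rose and 1 fell (15.4% and 7.69%). Sirpa, a receptor for CD47, rose from 179 ± 13.3 to 405 ± 5.85 CPM (1.18, SE 0.053, FDR 1.12e-09). Cdc42 rose by 0.60 (SE 0.044, FDR 9.31e-08) at the edge of the fold threshold (0.56, and no longer past it, without shTrem2 replicate 3). Adam8 fell (-0.84, SE 0.078, FDR 8.16e-07). The call of Cdc42 was also lost under upper quartile or library size scaling and on log2(FPKM + 1) and log2(FPKM + 0.1). Of 23 genes for acid secretion, which include the other proton pump subunits, 2 rose and 0 fell (8.70% and 0%). These were Slc4a2, the bicarbonate exchanger of osteoclasts, from 29.5 ± 2.12 to 59.1 ± 2.54 CPM (1.00, SE 0.068, FDR 4.26e-08; 0.61 as a log2 ratio of FPKM, and 0.58, no longer past the threshold, on log2(FPKM + 1)), and the scarce sodium-proton exchanger gene Slc9b2 (0.82, SE 0.282, FDR 0.0226). The call of Slc9b2 was lost without shNC replicate 1 (0.77) or 2 (0.80) and without shTrem2 replicate 1 (0.81) or 2 (0.73). Tcirg1, which encodes the pump subunit of the osteoclast membrane (-0.05, SE 0.050), and Car2, the carbonic anhydrase that supplies protons (-0.50, SE 0.078), were named after their values were seen and did not pass the fold threshold.

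Of 11 tested genes for attachment and matrix removal, 2 rose and 0 fell (18.2% and 0%). Itgb3, whose product forms the vitronectin receptor of osteoclasts, rose from 1.17 ± 0.148 to 3.37 ± 1.02 CPM (1.52, SE 0.286, FDR 0.000435), and Timp2 rose from 1.03 ± 0.418 to 1.84 ± 0.193 CPM (0.83, SE 0.331) with an FDR of 0.0447. The call of Timp2 was lost without any 1 of the libraries except shNC replicate 3, at log2 fold changes between 0.58 and 0.89, and with the replicate number as a block, at 0.86. Of 6 tested factors that osteoclasts secrete to signal to bone-forming cells, 0 rose and 2 fell (0% and 33.3%). Lif fell from 1.00 ± 0.299 to 0.174 ± 0.0611 CPM (-2.49, SE 0.491, FDR 0.000568) and Pdgfb from 47.7 ± 0.402 to 20.7 ± 4.10 CPM (-1.20, SE 0.104, FDR 4.18e-07). Lif passed the filter through the shNC libraries.

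Of 13 tested relatives and partners of the members, 0 rose and 3 fell (0% and 23.1%). They were Ctsl and Nfat5, given above, and Calcrl, the calcitonin receptor-like gene, from 110 ± 4.01 to 59.6 ± 2.11 CPM (-0.88, SE 0.054, FDR 1.65e-08). The partner genes of these receptors, Ramp1, Ramp2 and Ramp3, had at most 7 counts in any library and were not tested.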

How the data were processed

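The 6 RNA-seq libraries were grouped by the hairpin in their labels, 3 for shNC and 3 for shTrem2. Per the paper's methods and the submitters' processing notes, the authors processed reads with fastp, HISAT2 and StringTie on GRCm39 (tool versions are not given in the sources used here). The library kit was stranded with poly(A) selection. The authors deposited estimated counts per transcript row, not scaled for depth, with 79.3% of values above 0 not whole, and FPKM per gene. FPKM was read as deposited. Rows of a symbol were added up and rounded. Counts without a symbol (0.908 to 1.12% per library) entered neither library sizes nor tests, and 311 symbols pool several gene identifiers.

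The 10 members and all lists were chosen with earlier results of these data known. DEGs were called over 13528 genes with edgeR 4.0.16 in R 4.3.3 (TMM, filterByExpr by group, glmQLFit and glmQLFTest, no covariate), with the thresholds of the study (FDR by Benjamini-Hochberg under 0.05, fold change over 1.5). CPM values are scaled by TMM. A floor of 3 counts is between 0.155 and 0.186 CPM and covers counting error alone, as PCR copies of a molecule were not told apart. The replicates of a group differed beyond sampling noise.

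Named are the 10 members, the 4 or fewer most changed DEGs of each list, the tested relatives of members, Trem2 and the 3 genes nearest in pattern to Ctsk and Acp5 (mean log2 CPM of at least 3). Alternatives were DESeq2 1.42.0, limma-voom (limma 3.58.1), RLE, upper quartile or library size scaling, other filters and thresholds, a block for the replicate number, leaving out each library, and limma on log2(FPKM + 1) or log2(FPKM + 0.1). Some named items are not reported here. The scripts were tested on simulated data. Gene positions are from GENCODE on GRCm38 and promoters from RefSeq GRCm38.p6, which is not the build of the files, so they were joined by symbol.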

Additional observations from a re-analysis of the deposited data

How the results depend on the processing

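The 5 members past both thresholds were 3 when at least 10 counts were required in every library, since Ctsk and Ocstamp were then not tested, and between 5 and 6 when single libraries were left out, Dcstamp being the sixth. At a fold over 2 they were 4, without Nfatc1 (log2 fold change 0.97), and with no fold threshold they were 6. The log2 fold change of Tnfrsf11a turned to -0.00055 under upper quartile scaling, -0.015 with library size only, -0.0073 without shNC replicate 1 and -0.035 without shTrem2 replicate 3 (up to 0.0534 without another single library), and the log2 fold change of Timp1 to -0.0042 without shNC replicate 2 and -0.35 without shTrem2 replicate 1 (up to 0.436). That of Ctsk was 4.25 on log2(FPKM + 1) and between 5.87 and 6.23 without single libraries. No sign changed for the other 7 tested members under the alternatives run.

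All DEGs numbered 2951, 1339 at a fold over 2, 7763 with no fold threshold and between 2789 and 3105 without single libraries. The role lists went from 18 to 8 genes that rose on log2(FPKM + 1) and to 53 with no fold threshold, and from 14 to 5 that fell at a fold over 2 and to 34 with no fold threshold. The KEGG list went from 16 to 37 that rose with no fold threshold, and from 15 to 5 that fell at a fold over 2 and to 34 with no fold threshold. Without single libraries the role lists had between 16 and 18 that rose and between 14 and 16 that fell, and the KEGG list between 15 and 17 and between 14 and 15. For the named genes other than members, 708 of 745 settings left direction and call as they were and 34 ended the call, mostly for Timp2, Slc9b2, Cdc42, Tnfrsf1a and Nfat5, all near a threshold. Timp2 and Slc9b2 were lost with DESeq2, and their calls were also lost without some single libraries. On log2(FPKM + 1), which understates changes of scarce genes, Src, Map2k6, Itgb3, Pira1, Pira2 and Lif were among those under the fold threshold. Slc4a2, which was not scarce, was under it too, at 0.58, and its log2 ratio of mean FPKM was 0.61.

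Replicates with the same number did not deviate together (correlations -0.011, 0.0046 and 0.0059 across genes), so no shared effect of the numbers was seen. Whether samples with the same number were matched in culture or preparation cannot be told from these values. The replicate block gave 2911 DEGs, 2871 of them shared with the fit without it, and 5 members higher, and among the named genes it ended the call of Timp2 alone. Depth limits Oscar, Calcr, Mmp9 and Ocstamp.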
